A study of Homo sapiens with 18 samples.

Results

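Solute carriers are membrane proteins that move ions, nutrients, metabolites and metals across the plasma membrane and the membranes of organelles. Families are grouped by what they carry and how, and members of different families need not share ancestry. In leukaemia cells, as in other dividing cells, they bring in nucleosides, choline, creatine, carnitine and sugars, and they set the exchange of iron, zinc, calcium and protons with the medium.

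The genes described here are 32 solute carrier genes among 4413 tested and 5069 distinct sets of values in the deposited table. They were taken from lines whose symbol is SLC followed by a digit, with SLC7A5 and SLC7A11 left out by the rule. The table prints many sets of 18 values more than once and often under different symbols, so a gene was kept only where the table itself settled its symbol. For 8 of the genes the same set stood repeatedly under the symbol. For the other 24 the set also stood under a second symbol with the 3 values of OCI-AML3 clone 1 in rotated order, and the line that read a, b, c was kept where its twin read b, c, a. These rules settled 39 solute carrier genes. Of these, 7 (SLC1A1, SLC26A4, SLC35D3, SLC45A1, SLC4A5, SLC4A8 and SLC9B1) did not reach the minimum of 1 TPM in at least 3 libraries, with a highest value of 1.71 TPM, and were not tested. Of the 145 sets printed under a solute carrier symbol, 82 could not be tied to a gene and 23 belonged to a gene outside the family, and these are not analysed here. The symbols of 23 of the 32 genes also head another set of values. For 10 genes that set was settled to another gene, and for 13 it was not settled, which limits how firmly the name is tied to the values. Unsettled sets under SLC6A12, SLC46A3 and SLC4A11 averaged 79, 59.5 and 20 TPM in parental OCI-AML2 and 41.6, 19.9 and 51.9 TPM in parental OCI-AML3.

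The study measured RNA by sequencing in OCI-AML2 and OCI-AML3, established human cell lines of acute myeloid leukaemia. OCI-AML2 carries normal nucleophosmin (labelled NPM1WT), and OCI-AML3 carries the mutant that is displaced to the cytoplasm (labelled NPM1c+). Each line was sequenced as parental cells with intact caspase-2 and as 2 clones, clone 1 and clone 2, in which caspase-2 had been knocked out with CRISPR/Cas9. All cells were untreated. Each knockout group is a single clone, so the effect of the knockout and the history of that clone cannot be told apart. There were 3 libraries in each of the 6 groups. No label says that the 3 libraries came from separate cultures, so the p-values measure the spread between libraries, which may be technical. The design asks how loss of caspase-2 changes transcripts with and without mutant nucleophosmin. Each nucleophosmin genotype is represented by 1 line, so genotype cannot be told apart from other differences between the lines.

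Values are TPM, transcript abundances scaled for gene length and for the size of the library. The distinct sets summed to between 170140 and 199403 TPM per library, because the table holds part of each library, and the read depth is unknown. Libraries of a group correlated across genes at 0.993 to 0.997. The CASP2 line, whose symbol the rules above did not settle, read 35.32 to 37.29 TPM in parental OCI-AML2, 3 to 3.93 TPM in clone 1 and 3.27 to 5.06 TPM in clone 2. In OCI-AML3 it read 28 to 30.11, 26.34 to 27.83 and 29.82 to 35.39 TPM, and neither clone differed from parental cells (adjusted p = 0.537 and 0.24). The mRNA level alone is no check of a knockout, since a disrupted reading frame need not lower it. Of 16 myeloid markers listed, 4 had a settled symbol (PRTN3, CTSG, CD14 and FCGR1A), and their summed level was 2634 to 2823 TPM in parental OCI-AML2 and 12218 to 13694 TPM in parental OCI-AML3. In the OCI-AML3 clones that sum was 2489 to 2577 TPM and 3091 to 3467 TPM, and in the OCI-AML2 clones 3247 to 3684 TPM and 1347 to 1621 TPM. Within it PRTN3 and CTSG, proteases of granulocyte granules, were lower in both OCI-AML3 clones, with a mean of 7481 TPM against 1611 and 2193 TPM for PRTN3, whereas CD14, a monocyte receptor, rose from 0.813 to 42.1 and 50.2 TPM. FCGR1A, an antibody receptor of monocytes, fell there from 91.5 to 30.2 and 28.3 TPM. In OCI-AML2 both fell, FCGR1A from 133 to 68 and 53.4 TPM and CD14 from 6.44 to 3.63 and 3.09 TPM. The part of this shift in the values below was not tested. Among markers of other cell types, PAX5 of B cells read 0.08 to 4.2 TPM and COL1A2 of fibroblasts 0 to 3.91 TPM over all libraries. COL1A2 rose in OCI-AML3 from a mean of 0.137 to 3.27 and 1.95 TPM (adjusted p = 6e-13 and 5.1e-11) and was listed at 0 in all parental and clone 1 libraries of OCI-AML2. PAX5 fell in OCI-AML3 from 0.433 to 0.18 and 0.113 TPM, and in OCI-AML2 it averaged 1.75 TPM in parental cells, 4.03 TPM in clone 1 (adjusted p = 1.4e-09) and 1.99 TPM in clone 2 (adjusted p = 0.0979). The part of these markers in the values below was not tested either. No T cell or erythroid marker had a settled symbol.

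In OCI-AML3 the solute carriers moved mostly down. Of the 32 genes, 24 fell and 7 rose in both clones (96.9% called, against 67.1% of all sets tested and 85.4% of the sets whose symbol was settled by the same rules). The median log2 change of the 32 was -1.16, against -0.06 over all sets tested and -0.36 over the settled ones. Falls made up 75.0% of the 32 genes, against 38.3% of all sets tested and 50.8% of the settled sets, and rises 21.9%, against 28.7% and 34.6%. The lowest changes were those of SLC29A2 (-3.37), SLC12A3 (-2.88) and SLC25A4 (-2.42), and the highest were those of SLC25A40 (1.98), SLC37A2 (1.86) and SLC6A6 (1.16). A change is counted here where both clones differ from parental cells in the same direction at an adjusted p below 0.05, by limma on log2(TPM + 1). In bulk RNA, fewer cells of a type and less RNA per cell cannot be told apart.

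These counts have limits. The table holds genes selected for change: 28 of the 32 genes, 75.4% of the settled sets and 47.2% of all sets differed from parental OCI-AML3 by at least 0.95 on the log2 scale of mean TPM in both clones. In addition, 5 genes (SLC12A3, SLC16A10, SLC25A4, SLC30A3 and SLC35F1) reached the minimum of 1 TPM in the parental OCI-AML3 libraries alone and so had to be lower in the clones. In the same way SLC12A5 reached it in libraries of the OCI-AML3 clones alone, and SLC25A34 in clone libraries of both lines but in no parental library, so that both had to be higher in clones. Among the other 25 genes, 19 fell and 5 rose in OCI-AML3. SLC2A4, 1 of the 19, reached 1 TPM outside parental OCI-AML3 in only 1 library, of OCI-AML2 clone 1 (1.09 TPM). Its fall was thus also tied to the minimum. For the OCI-AML3 counts by substrate class below, the background is 50.8% falls and 34.6% rises in the settled sets.

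In OCI-AML2 the same family split more evenly. In both clones 9 genes rose and 6 fell (46.9% called, against 38.4% of all sets tested and 48.2% of the settled sets), so the share was close to the background. Rises made up 28.1% of the 32 genes (23.8% of all sets, 31.6% of the settled ones) and falls 18.8% (14.6% and 16.6%). The median log2 change was 0.07, and it ran from -1.64 for SLC16A6 to 3.46 for SLC26A9. Of the 15 called changes, 5 reached 1 on the log2 scale, compared with 21 of 31 in OCI-AML3.

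Set against each other, 3 genes rose in both lines (SLC25A34, SLC37A2 and SLC6A6) and 6 fell in both (SLC12A3, SLC16A6, SLC22A5, SLC27A2, SLC6A12 and SLC6A8). Another 5 rose in OCI-AML2 and fell in OCI-AML3: SLC16A13, SLC16A9, SLC22A31, SLC37A1 and SLC44A2. Of these, SLC44A2 and SLC37A1 lost the call in OCI-AML2, and SLC16A13 that in OCI-AML3, under some alternative settings given below. A further 13 had a called fall and 4 a called rise in OCI-AML3 with no call in OCI-AML2, and SLC26A9 had a call in OCI-AML2 alone. The change itself differed between the lines for 29 of the 32 genes (90.6%), where all 4 differences between a clone of one line and a clone of the other passed in one direction. That share was 61.3% over all sets tested and 81.3% over the settled sets. The difference, OCI-AML3 minus OCI-AML2, was negative in 23 genes and positive in 6, with a median of -1.26. Some of these genes were near 0 TPM in 1 of the lines, such as SLC25A4 in OCI-AML2 and SLC26A9 in OCI-AML3. Negative differences were called in 71.9% of the 32 genes, 37.1% of all sets and 51% of the settled sets, and positive ones in 18.8%, 24.2% and 30.3%. The 5 genes that reached the minimum in parental OCI-AML3 alone are all among the 23, and their sign was tied to that minimum. The same holds for SLC12A5 among the 6. With any 1 parental OCI-AML3 library left out, 27 genes were tested, with 18 negative and 6 positive differences. The 3 genes without such a difference were SLC16A6 (0.18, SE 0.12), SLC25A34 (-0.19, SE 0.16) and SLC8A1 (0.52, SE 0.13). Rescaling each library by the median of its ratios moved the median difference over all sets from -0.23 to -0.06, and 28 solute carriers, 22 lower and 6 higher, were then called.

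**Figure D1:**
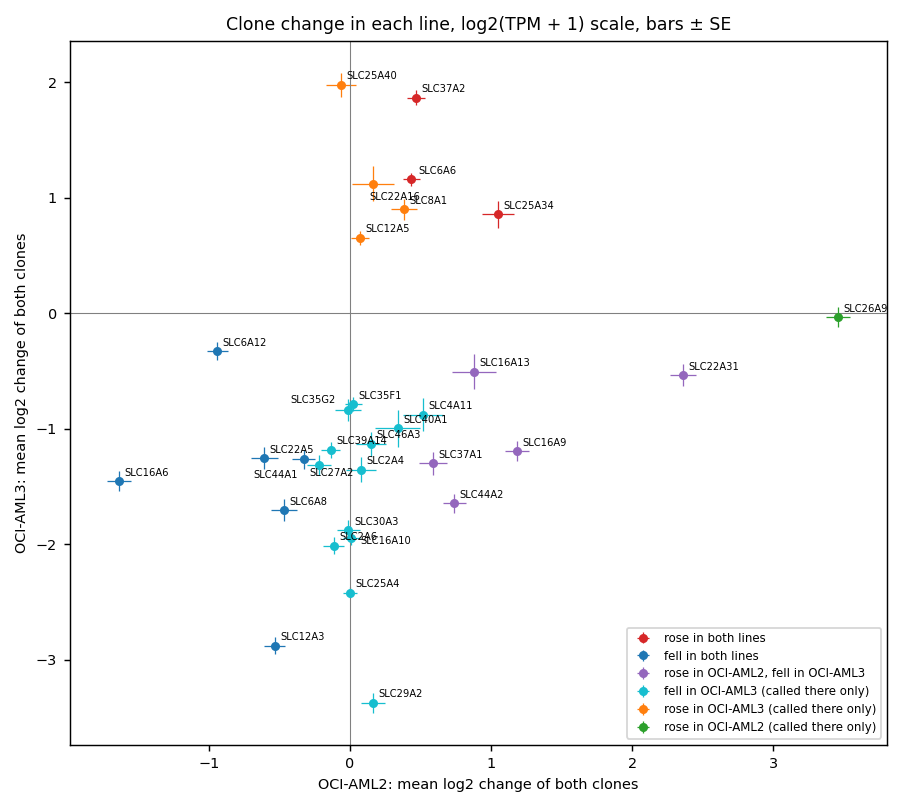
Mean log2(TPM + 1) change of both knockout clones against parental cells, OCI-AML2 on the horizontal and OCI-AML3 on the vertical axis, for the 32 solute carrier genes. Points are limma estimates with bars of 1 SE, coloured by the calls. Most points lie below 0 on the vertical axis (24 called falls against 7 called rises), while they spread to both sides of 0 on the horizontal one (6 falls and 9 rises).

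Summed over the 32 genes, the level was 502 ± 12.4 TPM in parental OCI-AML3 (mean ± SD, n = 3 libraries per group here and below), 283 ± 4.18 TPM in clone 1 and 306 ± 18.2 TPM in clone 2. In OCI-AML2 the sum was 405 ± 17.8, 417 ± 34.2 and 459 ± 27.6 TPM. The sums of the OCI-AML3 clones lay below those of their parental libraries without overlap. Clone 1 of OCI-AML2 overlapped its parental libraries. Clone 2 of OCI-AML2, at 428.23 to 480.82 TPM, lay above the parental 385.21 to 419.71 TPM without overlap. The sum rests on few genes: the mean over all 18 libraries ranged from 0.389 TPM (SLC35F1) to 79.9 TPM (SLC39A14) with a median of 4.91 TPM, and it exceeded 20 TPM in 7 genes and was below 2 TPM in 10.

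**Figure D2:**
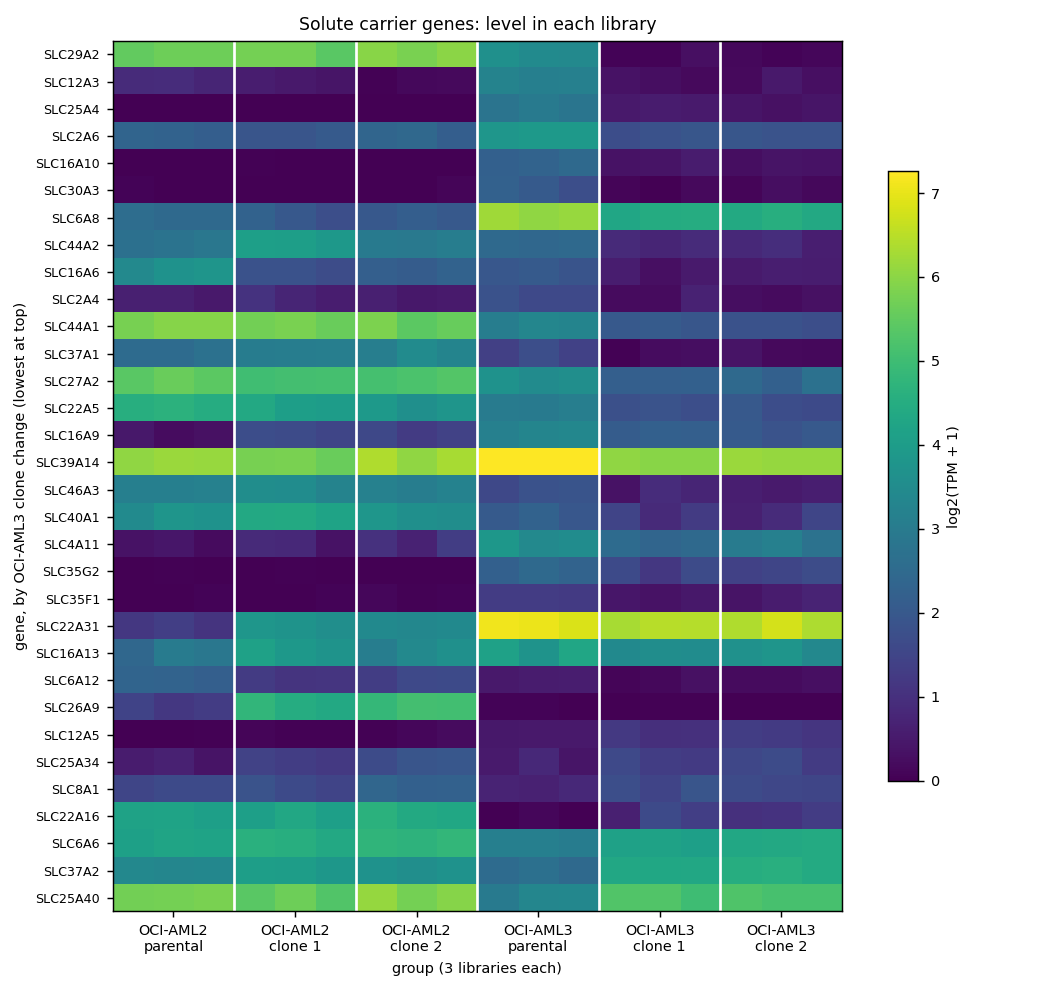
Level of the 32 solute carrier genes in each of the 18 libraries as log2(TPM + 1), with genes in the order of their mean change in the OCI-AML3 clones (lowest at the top) and white lines between groups of 3 libraries. The parental OCI-AML3 columns are brighter than the clone columns next to them for the genes in the upper part, and darker for the 7 genes at the bottom.

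To show the sequence next to which transcription of genes with contrasting changes begins, the 250 bases before the annotated start are given for 5 of them, as listed by RefSeq on GRCh38.p14. The 5 were chosen as the largest rise and fall in each line among genes with exactly 1 listed window, with the largest opposite change added. SLC26A9 lies at chr1:205943457-205943706 (minus strand), SLC22A5 at chr5:132369460-132369709 (plus), SLC25A40 at chr7:87876361-87876610 (minus), SLC12A3 at chr16:56864957-56865206 (plus) and SLC22A31 at chr16:89201679-89201928 (minus). Capitals mark matches, on either strand, to the GC box GGGCGG, the CCAAT box CCAAT and the TATA box TATAAA.
SLC26A9: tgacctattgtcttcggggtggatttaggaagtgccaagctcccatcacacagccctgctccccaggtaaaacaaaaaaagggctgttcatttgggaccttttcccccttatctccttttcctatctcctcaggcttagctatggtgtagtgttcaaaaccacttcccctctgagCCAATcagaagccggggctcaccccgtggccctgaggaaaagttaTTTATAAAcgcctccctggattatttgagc
SLC22A5: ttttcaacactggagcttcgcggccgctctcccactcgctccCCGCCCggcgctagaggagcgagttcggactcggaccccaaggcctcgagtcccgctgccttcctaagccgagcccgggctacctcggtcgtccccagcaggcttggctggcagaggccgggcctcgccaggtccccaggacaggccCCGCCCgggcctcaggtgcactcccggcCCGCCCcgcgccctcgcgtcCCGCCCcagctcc
SLC25A40: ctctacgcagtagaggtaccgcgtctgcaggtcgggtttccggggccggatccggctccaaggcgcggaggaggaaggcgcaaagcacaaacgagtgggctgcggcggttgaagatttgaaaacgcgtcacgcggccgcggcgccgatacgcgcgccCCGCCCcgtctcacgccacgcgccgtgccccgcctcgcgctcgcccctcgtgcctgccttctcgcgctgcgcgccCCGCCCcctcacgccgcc
SLC12A3: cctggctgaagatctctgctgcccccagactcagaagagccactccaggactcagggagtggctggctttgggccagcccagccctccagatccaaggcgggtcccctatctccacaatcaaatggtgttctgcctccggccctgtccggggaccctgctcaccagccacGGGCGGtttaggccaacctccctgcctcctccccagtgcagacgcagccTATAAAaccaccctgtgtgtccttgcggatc
SLC22A31: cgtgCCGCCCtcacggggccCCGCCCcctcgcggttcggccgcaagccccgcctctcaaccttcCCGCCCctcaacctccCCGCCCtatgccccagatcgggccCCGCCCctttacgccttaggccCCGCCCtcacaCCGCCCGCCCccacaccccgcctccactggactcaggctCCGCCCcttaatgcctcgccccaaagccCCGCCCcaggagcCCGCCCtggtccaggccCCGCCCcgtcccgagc
SLC26A9, with the largest rise in OCI-AML2, had no GC box in this window but 1 CCAAT box and 2 overlapping TATA matches, and its GC content was 49.6%. The window of SLC22A31 held 12 GC box matches, 2 of them overlapping, at a GC content of 76.4%. SLC22A5 held 4, SLC25A40 held 2 and SLC12A3 held 1 together with a TATA match. Of the 32 genes, 22 had an entry, with 28 windows in all. A GC box stood in 21 of these windows (75.0%), against 42.6% of the 35116 windows listed for the genome, and the median GC content was 72.2% against 58.0%. CCAAT stood in 8 of the 28 (28.6%, against 32.0%), TATAAA in 3 (10.7%, against 10.7%), the E-box CACGTG in 1 (3.57%, against 6.34%) and GAGGAAGT, of the kind bound by PU.1, in 1 (3.57%, against 2.17%). The cAMP response element TGACGTCA stood in 0 of 28 and in 1.65% of all windows. These matches describe letters and not binding, and neither occupancy nor methylation was measured here.

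SLC29A2, the nucleoside transporter ENT2, was the one nucleoside carrier among the 32, and it had the largest fall in OCI-AML3. It read 11.55, 10.06 and 9.67 TPM in the parental libraries, 0.05, 0.06 and 0.24 TPM in clone 1 and 0.11, 0.06 and 0.1 TPM in clone 2. Every clone library lay close to 0 and far below the parental ones. The log2(TPM + 1) change was -3.36 and -3.39 (SE 0.10 each, adjusted p = 2.6e-15 and 2.2e-15), which on mean TPM is a ratio of 89.4 and 116. In OCI-AML2 the transcript stood higher and was not called as changed. It read 44.97, 49.1 and 49.69 TPM in parental cells, 52.66, 52.64 and 41.55 TPM in clone 1 and 61.14, 54.75 and 62.57 TPM in clone 2. Clone 1 overlapped the parental libraries and clone 2 lay above them (0.31, adjusted p = 0.011). The changes of the lines thus differed by -3.54 (SE 0.12, adjusted p = 2.3e-14).

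Of the 4 sugar carriers, SLC2A4, SLC2A6 and SLC37A1 fell in OCI-AML3 and SLC37A2 rose. SLC37A2, a sugar phosphate exchanger of the endoplasmic reticulum known from macrophages, read 4.84, 5.43 and 4.53 TPM in parental OCI-AML3, 19.34, 19.13 and 19.36 TPM in clone 1 and 22.08, 22.93 and 20.69 TPM in clone 2. The groups did not overlap, and the clone means were 3.91 and 4.44 times the parental mean (log2 change 1.78 and 1.95, SE 0.07 each, adjusted p = 3.2e-13 and 8.7e-14). In OCI-AML2 it rose less, from 9.24 ± 0.222 TPM to 14.8 ± 1.27 and 11.7 ± 0.547 TPM, and the difference between the lines was 1.40 (SE 0.09, adjusted p = 1.5e-10). An unsettled second set under the SLC37A2 symbol averaged 2.89 TPM in parental OCI-AML3 and 3.31 and 3.1 TPM in its clones. In OCI-AML2 that set averaged 5.68, 6.83 and 4.72 TPM in parental cells, clone 1 and clone 2. SLC37A1, a relative of SLC37A2, fell in OCI-AML3. It went from 1.61, 2.37 and 1.63 TPM to 0.04, 0.18 and 0.2 TPM in clone 1 and 0.3, 0.13 and 0.12 TPM in clone 2. In OCI-AML2 SLC37A1 rose from 5.03 ± 0.418 TPM to 7.38 ± 0.185 and 8.86 ± 1.39 TPM, a rise no longer called with a pseudocount of 0.1 TPM (adjusted p = 0.101). The changes in OCI-AML3 and OCI-AML2 differed by -1.89 (SE 0.14, adjusted p = 8.6e-10). SLC2A6, the glucose transporter GLUT6 of lysosomes, fell in OCI-AML3 from 13.6 ± 0.495 TPM to 2.55 ± 0.281 and 2.7 ± 0.139 TPM, which is 5.34 and 5.04 times lower. In OCI-AML2 its clone 1 was lower than parental cells (log2 change -0.30, adjusted p = 0.00646). Clone 2 overlapped the parental libraries there, and SLC2A6 was not called.

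All 4 genes of the monocarboxylate transporter family, which exports lactate and related acids, fell in OCI-AML3, and 2 rose and 1 fell in OCI-AML2. Among them SLC16A10 reached the minimum in parental OCI-AML3 alone, so that its fall was fixed. SLC16A6, described as a ketone body exporter of liver, was the largest fall in OCI-AML2. It read 9.58, 12.09 and 12.69 TPM in parental cells, 2.58, 2.56 and 2.23 TPM in clone 1 and 3.57, 3.36 and 3.83 TPM in clone 2. The clones lay 4.66 and 3.19 times below the parental mean with no overlap (log2 change -1.84 and -1.43, SE 0.10 each, adjusted p = 3.3e-11 and 6.6e-10). In OCI-AML3 SLC16A6 started lower, at 2.94 ± 0.255 TPM, and fell to 0.387 ± 0.14 and 0.49 ± 0.05 TPM. SLC16A9, a carrier linked to carnitine and urate levels, moved in opposite directions. It rose in OCI-AML2 from 0.38, 0.18 and 0.25 TPM to 2.31, 2.17 and 1.84 TPM in clone 1 and 1.99, 1.38 and 1.7 TPM in clone 2, and it fell in OCI-AML3 from 8.7 ± 0.736 TPM to 3.53 ± 0.182 and 2.95 ± 0.31 TPM. The difference between the lines was -2.38 (SE 0.12, adjusted p = 5.3e-12).

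SLC16A13, another member of that family, rose in OCI-AML2 from 5.93 ± 1.41 TPM to 14.3 ± 2.42 and 9.57 ± 2.07 TPM. In OCI-AML3 it read 16.87, 12.22 and 18.77 TPM in parental cells, 9.94, 10.84 and 10.45 TPM in clone 1 and 11.62, 12.74 and 9.37 TPM in clone 2. Here clone 2 overlapped the parental libraries, and the fall (log2 change -0.55 and -0.46, SE 0.18 each, adjusted p = 0.00981 and 0.0274) was lost on rescaling (adjusted p = 0.135), without parental replicate 1 (0.0827) or 3 (0.132) and without clone 2 replicate 3 (0.126). SLC16A10, which despite its family carries aromatic amino acids, was listed at 0 in 8 of the 9 OCI-AML2 libraries. In OCI-AML3 it read 3.69, 3.92 and 4.54 TPM in parental cells and 0.21 to 0.46 TPM over both clones, a log2 change of -1.90 and -1.99 (SE 0.07 each). A second set under this symbol, not settled, averaged 14.9 TPM in parental OCI-AML2 and 0.14 TPM in parental OCI-AML3.

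The 3 genes of the lipid and choline group fell in OCI-AML3. SLC44A2, a choline transporter-like protein that also carries a neutrophil antigen, read 4.6, 4.32 and 4.62 TPM in parental OCI-AML3, 0.81, 0.68 and 0.85 TPM in clone 1 and 0.8, 0.93 and 0.53 TPM in clone 2. In OCI-AML2 it read 5.42, 5.73 and 6.33 TPM, then 16.26, 15.82 and 13.65 TPM in clone 1 and 6.87, 6.57 and 7.49 TPM in clone 2. Clone 1 of OCI-AML2 thus stood apart from both other groups, while clone 2 lay just above the parental libraries. The rise in clone 2 was small (0.23, SE 0.09, adjusted p = 0.0437) and the call in OCI-AML2 was lost in 8 of 25 alternatives (adjusted p = 0.0509 to 0.155), among them the omission of parental replicate 1 (0.151) or 2 (0.0956), of clone 2 replicate 1 (0.0684) or 3 (0.153) and of OCI-AML3 clone 1 replicate 1 (0.0509). The difference between the lines was -2.38 (SE 0.12, adjusted p = 2.5e-12). SLC44A1, a choline transporter, fell in OCI-AML3 from 8.38 ± 0.849 TPM to 3.07 ± 0.207 and 2.48 ± 0.116 TPM, and it stood at 58.1 ± 4.32, 51.4 ± 3.9 and 48.2 ± 6.84 TPM in OCI-AML2, where both clones overlapped parental cells. SLC27A2, which activates very long chain fatty acids for uptake, fell in OCI-AML3 from 11.2 ± 0.745 TPM to 3.61 ± 0.0666 and 4.59 ± 0.905 TPM. In OCI-AML2 it fell from 43.6 ± 3.05 TPM to 32.8 ± 0.881 and 36.2 ± 2.25 TPM, a call that was lost without parental replicate 2 (adjusted p = 0.0992) or clone 2 replicate 1 (0.0821).

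The organic cation and anion family held 3 genes with 3 patterns. SLC22A31, a member with no known substrate, read 1.24, 1.53 and 1.14 TPM in parental OCI-AML2, 13.07, 12.18 and 11.07 TPM in clone 1 and 9.91, 9.17 and 9.8 TPM in clone 2, so that both clones lay 9.29 and 7.39 times above parental cells. In OCI-AML3 it started far higher, at 137.62, 131.81 and 113.06 TPM, and fell to 77.77, 87.38 and 86.23 TPM in clone 1 and 83.57, 110.57 and 81.98 TPM in clone 2. No clone library reached the parental range in either line. The log2 change was 2.36 (SE 0.09) in OCI-AML2 and -0.54 (SE 0.09) in OCI-AML3, and the difference of -2.89 (SE 0.13, adjusted p = 1e-12) was the largest among the 5 genes with opposite calls. An unsettled set that also stands under SLC22A31 was listed at 0 on average in every OCI-AML2 group and averaged 2.5 TPM in parental OCI-AML3, 3.84 TPM in clone 1 and 5.88 TPM in clone 2. SLC22A5, the carnitine importer OCTN2, fell in both lines, from 22.8 ± 1.54 TPM to 16.9 ± 2.55 and 12.7 ± 1.33 TPM in OCI-AML2 and from 7.23 ± 0.297 TPM to 2.46 ± 0.147 and 2.46 ± 0.51 TPM in OCI-AML3. Its difference between the lines (-0.64, SE 0.14) was not called after rescaling (adjusted p = 0.0692). A second, unsettled set under this symbol averaged 45.1, 51.6 and 63.2 TPM in parental cells, clone 1 and clone 2 of OCI-AML2 and 18.9, 12 and 12.4 TPM in those of OCI-AML3. SLC22A16, which imports carnitine and the drug doxorubicin, read 0, 0.09 and 0 TPM in parental OCI-AML3, 0.57, 2.1 and 1.52 TPM in clone 1 and 1.02, 1.09 and 1.43 TPM in clone 2 (log2 change 1.16 and 1.08, SE 0.17 each, adjusted p = 7.2e-06 and 1.8e-05). It stood at 15.95 to 24.09 TPM over the OCI-AML2 libraries, where it was not called.

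**Figure D3:**
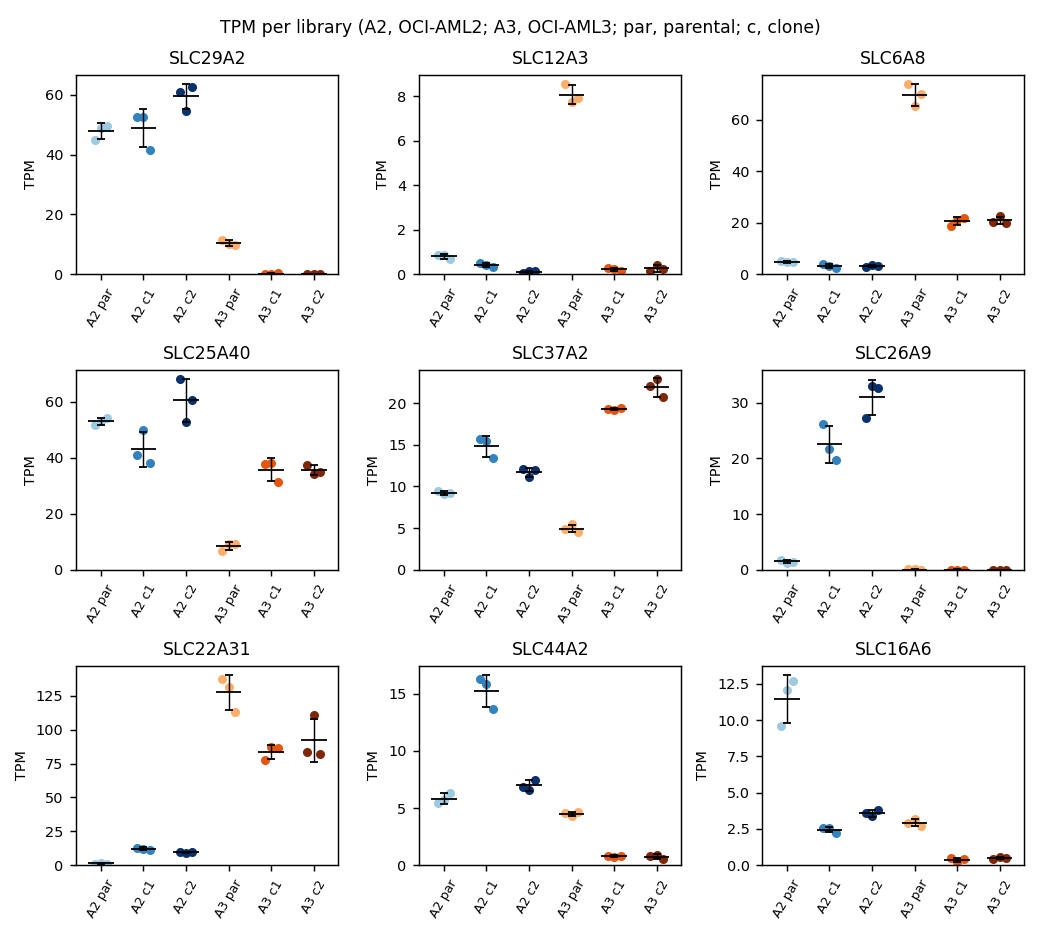
TPM of 9 solute carrier genes in each of the 3 libraries of the 6 groups (points), with the group mean (horizontal line) and SD (bar); each vertical axis is linear, starts at 0 and has its own range. SLC29A2 and SLC12A3 drop close to 0 in both OCI-AML3 clones, SLC25A40 and SLC37A2 rise there, and SLC26A9 rises in both OCI-AML2 clones.

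The amine and osmolyte family SLC6 had 1 gene that rose and 2 that fell in both lines. SLC6A8, the creatine transporter, read 73.72, 65.18 and 69.92 TPM in parental OCI-AML3, 18.8, 21.04 and 21.67 TPM in clone 1 and 20.36, 22.41 and 19.79 TPM in clone 2. Both clones lay below the parental cells without overlap, at ratios of 3.39 and 3.34 (log2 change -1.72 and -1.69, SE 0.11 each, adjusted p = 8.9e-11 and 1.1e-10). In OCI-AML2 SLC6A8 was lower throughout and fell from 4.7 ± 0.254 TPM to 3.09 ± 0.772 and 3.19 ± 0.282 TPM. An unsettled second set under the SLC6A8 symbol averaged 57.8 TPM in parental OCI-AML3 and 44.7 and 46.8 TPM in its clones. SLC6A6, the taurine transporter, rose in OCI-AML3 from 7.85, 7.73 and 7.23 TPM to 16.69, 17.06 and 16.09 TPM in clone 1 and 19.25, 19.7 and 20.77 TPM in clone 2, and in OCI-AML2 from 17.4 ± 0.654 TPM to 21.9 ± 1.89 and 25.9 ± 0.831 TPM. No clone library of either line overlapped the parental ones, and the rise was larger in OCI-AML3 (difference 0.72, SE 0.08, adjusted p = 2.8e-07). SLC6A12, the betaine and GABA transporter, fell in OCI-AML2 from 3.86 ± 0.255 TPM to 1.24 ± 0.125 and 1.87 ± 0.332 TPM and in OCI-AML3 from 0.46 ± 0.0557 TPM to 0.147 ± 0.1 and 0.18 ± 0.0361 TPM. Its difference between the lines of 0.61 depends on the scale and was not called with a pseudocount of 0.1 TPM (adjusted p = 0.965).

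All 3 metal carriers fell in OCI-AML3, and none was called in OCI-AML2. The fall of SLC30A3 was fixed by the minimum, which it reached in parental OCI-AML3 alone. SLC39A14, the zinc, manganese and iron importer ZIP14, had the highest mean of the 32 genes over all 18 libraries, although SLC22A31 stood above it in both OCI-AML3 clones (83.8 against 63.1 TPM in clone 1 and 92 against 69.2 TPM in clone 2). It read 149.43, 151.96 and 152.08 TPM in parental OCI-AML3, 65.54, 61.74 and 61.96 TPM in clone 1 and 70.89, 68.64 and 68.19 TPM in clone 2, with ratios of 2.4 and 2.18 and adjusted p = 8.8e-11 and 4.1e-10. The OCI-AML3 clones thus came to the level of OCI-AML2, where the groups stood at 68.8 ± 3.12, 52.1 ± 3.96 and 75.3 ± 9.41 TPM. Clone 1 of OCI-AML2 lay below its parental libraries without overlap (log2 change -0.40, adjusted p = 0.00031), whereas clone 2 overlapped them. SLC40A1, ferroportin, the exporter of iron from cells, fell in OCI-AML3 from 3.16, 3.91 and 2.95 TPM to 1.82, 0.82 and 1.42 TPM in clone 1 and 0.55, 0.87 and 1.87 TPM in clone 2. Its clone libraries varied among themselves but stayed under the parental ones. In OCI-AML2 clone 1 it was higher than in parental cells, at 19.1 ± 1.45 against 11.7 ± 1.33 TPM (adjusted p = 0.0047), whereas clone 2 overlapped them at 11.7 ± 1.18 TPM. SLC30A3, which loads zinc into vesicles of neurons, read 3.75, 3.16 and 2.32 TPM in parental OCI-AML3, 0.07, 0 and 0.13 TPM in clone 1 and 0.07, 0.21 and 0.12 TPM in clone 2, and it was at most 0.07 TPM in OCI-AML2.

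Among the 4 ion carriers of the chloride, bicarbonate and proton group, SLC26A9 had the largest rise of the 32 genes in OCI-AML2. This anion transporter of epithelia read 1.76, 1.27 and 1.44 TPM in parental OCI-AML2, 26.22, 21.66 and 19.64 TPM in clone 1 and 27.27, 33.03 and 32.57 TPM in clone 2. Both clones lay far above the parental libraries, at 15.1 and 20.8 times the mean (log2 change 3.23 and 3.68, SE 0.10 each, adjusted p = 1.5e-14 and 2.2e-15). In OCI-AML3 it was at most 0.05 TPM in every library. SLC12A3, the thiazide-sensitive sodium chloride cotransporter of kidney, read 8.54, 7.73 and 7.93 TPM in parental OCI-AML3, 0.28, 0.21 and 0.14 TPM in clone 1 and 0.13, 0.41 and 0.24 TPM in clone 2 (log2 change -2.91 and -2.85, SE 0.08 each, adjusted p = 1.9e-15 and 2.3e-15). It also fell in OCI-AML2, from a lower level, at 0.85, 0.88 and 0.68 TPM in parental cells against 0.49, 0.41 and 0.33 TPM in clone 1 and 0.04, 0.12 and 0.13 TPM in clone 2. Neither line showed overlap between clones and parental cells. The fall in OCI-AML3 was fixed by the minimum, which SLC12A3 reached in parental OCI-AML3 alone. SLC12A5, a potassium chloride cotransporter of neurons, rose in OCI-AML3 from 0.403 ± 0.0208 TPM to 1.09 ± 0.178 and 1.34 ± 0.16 TPM, and its difference between the lines (0.58) was not called with a pseudocount of 0.1 TPM (adjusted p = 0.183). SLC12A5 reached the minimum in libraries of the OCI-AML3 clones alone, so that its rise was fixed. SLC4A11, a proton conductor known from the cornea, fell in OCI-AML3 from 11.2 ± 1.82 TPM to 4.52 ± 0.316 and 6.9 ± 1.13 TPM, also not called with that pseudocount (adjusted p = 0.0722). A second set under the SLC12A5 symbol, not settled, averaged 9.86 TPM in parental OCI-AML2. In OCI-AML3 that set averaged 4.45 TPM in parental cells and 5.41 and 6.27 TPM in the clones.

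SLC8A1, the sodium calcium exchanger, was the one gene of the sodium, potassium and calcium exchange group among the 32. It rose in OCI-AML3 from 0.66, 0.6 and 0.77 TPM to 2.32, 1.83 and 2.74 TPM in clone 1 and 2.18, 1.91 and 1.88 TPM in clone 2, and the groups did not overlap. In OCI-AML2 it was higher in clone 2 (3.91 ± 0.291 TPM) than in parental cells (2.02 ± 0.153 TPM), while clone 1 overlapped them at 2.15 ± 0.405 TPM. SLC46A3, a lysosomal carrier that releases breakdown products of antibody conjugates, fell in OCI-AML3 from 2.4 ± 0.352 TPM to 0.62 ± 0.304 and 0.5 ± 0.0436 TPM. Both genes of the nucleotide sugar family, SLC35F1 and SLC35G2, fell in OCI-AML3 and were at most 0.09 TPM in OCI-AML2. The fall of SLC35F1 was fixed by the minimum, which it reached in parental OCI-AML3 alone. An unsettled second set under the SLC35F1 symbol averaged 0.907 TPM in parental OCI-AML3 and 1.37 and 1.21 TPM in its clones. SLC35G2 read 3.69, 4.62 and 3.98 TPM in parental OCI-AML3, 2.11, 1.24 and 2.16 TPM in clone 1 and 1.65, 1.84 and 2.21 TPM in clone 2.

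The mitochondrial carriers held the third largest fall and the largest rise of the 32 genes in OCI-AML3. That fall, of SLC25A4, was fixed by the minimum, which the gene reached in parental OCI-AML3 alone. SLC25A40, linked to the import of glutathione into mitochondria, read 6.74, 9.06 and 9.23 TPM in parental OCI-AML3, 37.89, 38.14 and 31.13 TPM in clone 1 and 37.44, 34.18 and 34.69 TPM in clone 2. The clone means were 4.28 and 4.25 times the parental mean and did not overlap it (log2 change 1.98 and 1.97, SE 0.12 each, adjusted p = 5.5e-11 and 5.7e-11). In OCI-AML2 its clones stood on either side of the parental mean of 53 ± 1.28 TPM, at 43 ± 6.21 and 60.4 ± 7.78 TPM, and the difference between the lines was 2.04 (SE 0.15, adjusted p = 6.1e-10). Another set under the SLC25A40 symbol, not settled, averaged 111 TPM in parental OCI-AML3 and 97.4 and 104 TPM in its clones. SLC25A4, the adenine nucleotide translocase of heart and muscle, read 5.96, 6.9 and 6.13 TPM in parental OCI-AML3, 0.4, 0.46 and 0.45 TPM in clone 1 and 0.33, 0.25 and 0.34 TPM in clone 2. It was listed at 0 in all 9 OCI-AML2 libraries. A second SLC25A4 set, unsettled, averaged 9.01 TPM in parental OCI-AML2 and 21.4 TPM in parental OCI-AML3, so the name of the tested set is uncertain. SLC25A34, a carrier of unknown substrate, rose in both lines, from 0.457 ± 0.145 TPM to 1.5 ± 0.21 and 2.63 ± 0.401 TPM in OCI-AML2, and from 0.51 ± 0.24 TPM to 1.63 ± 0.352 and 1.82 ± 0.383 TPM in OCI-AML3. It reached the minimum in no parental library, so that it had to be higher in clones.

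The parental lines differed in 31 of the 32 genes, 15 higher in OCI-AML3 and 16 higher in OCI-AML2 (90.6% of all sets tested, 47.2% higher and 43.4% lower in OCI-AML3, and 97.4% of the settled sets were called). The exception was SLC25A34 (adjusted p = 0.75). Of the 15, 5 (SLC12A3, SLC16A10, SLC25A4, SLC30A3 and SLC35F1) reached the minimum of 1 TPM in parental OCI-AML3 alone. They thus had to be higher there. With any 1 parental OCI-AML3 library left out, 27 genes were tested, 10 higher in OCI-AML3 and 16 higher in OCI-AML2. The table holds genes selected for change. Parental means differed by at least 0.95 on the log2 scale in 29 of 32 genes (92.5% of settled sets, 77.6% of all). SLC22A31 had the widest gap, with a mean 97.8 times higher in OCI-AML3 (log2 difference 5.80, SE 0.11, adjusted p = 6.3e-19). Also higher in OCI-AML3 were SLC6A8 (3.63), SLC4A11 (3.27) and SLC16A9 (2.93), while SLC22A16 was higher in OCI-AML2 (-4.12, SE 0.17). This comparison shares the parental libraries with the clone comparisons, so their values are not independent. The lipid and choline genes were all higher in OCI-AML2, SLC44A1 by 6.93 times and SLC27A2 by 3.91 times.

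The 2 clones of OCI-AML2 differed from each other in 18 of the 32 genes, 10 higher and 8 lower in clone 2 (58.9% of all sets tested, 29.9% higher and 29% lower, and 57.2% of the settled sets were called). After rescaling the split was 12 and 6. The largest difference was that of SLC44A2 (-1.02, SE 0.09, adjusted p = 4.6e-08), followed by SLC40A1 (-0.66, SE 0.18), SLC8A1 (0.65, SE 0.10), SLC16A13 (-0.54, SE 0.18) and SLC25A34 (0.53, SE 0.13). Of the 18 calls, 6 were lost under at least 1 alternative. SLC40A1 was lost with a pseudocount of 0.1 TPM (adjusted p = 0.0626), and SLC16A13 without clone 1 replicate 1 (0.0796) or clone 2 replicate 1 (0.0883). In OCI-AML3 the clones differed in 1 gene, SLC6A6, which was higher in clone 2 (0.25, SE 0.07, adjusted p = 0.0382), against 6.82% of all sets tested and 7.75% of the settled sets. That call was lost in 9 of 25 alternatives (adjusted p = 0.0502 to 0.113), among them the omission of any single OCI-AML3 clone library or of OCI-AML2 parental replicate 3 (0.0508). The largest estimate there was that of SLC4A11 (0.51, SE 0.16, adjusted p = 0.0676). Whether the clones differ more in one line than in the other was not tested.

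**Figure D4:**
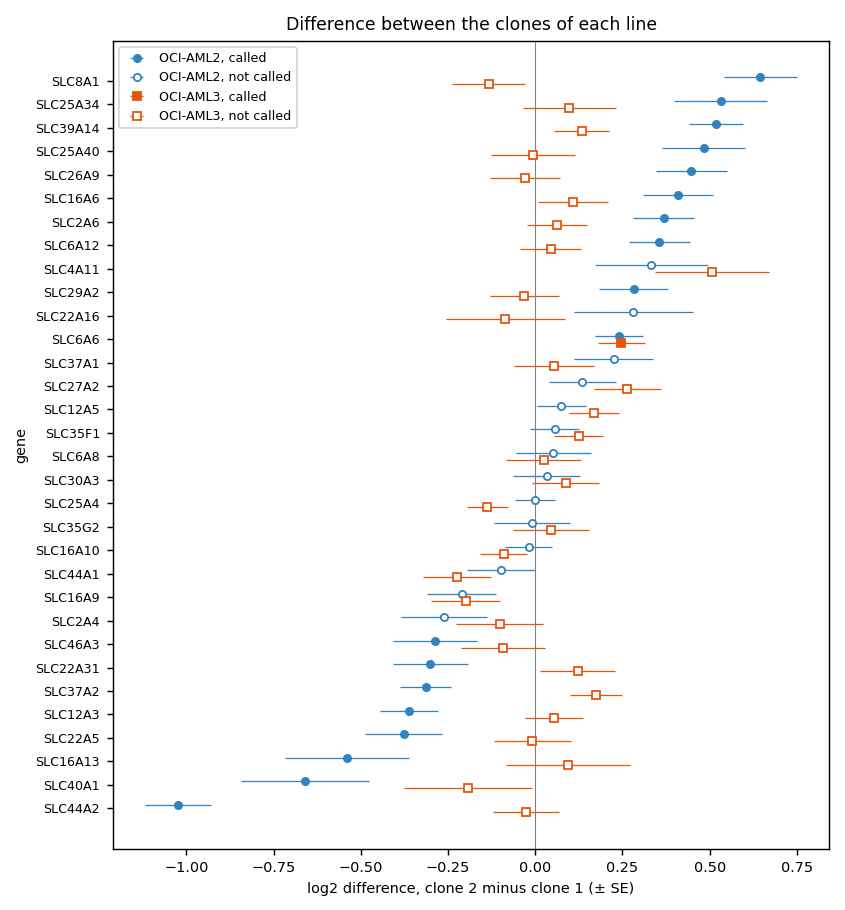
Difference in log2(TPM + 1) between clone 2 and clone 1 of each line for the 32 solute carrier genes, with bars of 1 SE. Filled symbols passed an adjusted p of 0.05, which 18 genes did in OCI-AML2 (circles) and 1 in OCI-AML3 (squares); SLC44A2 lies lowest at -1.02.

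Membrane transporters whose symbol is not SLC followed by a digit were taken from a list of 95 genes. It includes ATP-driven pumps, organic anion transporting polypeptides and orphan carriers. The list was set apart by symbol only, and some of its genes, such as UCP2 and SLCO3A1, are also classed as solute carriers under other names. It is therefore no contrast of solute carriers with other transporters. Of these, 45 stood in the table, 16 had a settled symbol and 14 were tested. In OCI-AML2 6 rose and 2 fell (5 and 3 after rescaling), and in OCI-AML3 7 rose and 7 fell. Calls were made for 38.4% of all sets and 48.2% of the settled sets in OCI-AML2, and for 67.1% and 85.4% in OCI-AML3. The medians of the 14 were 0.17 and 0.09, against 0.06 and -0.06 over all sets tested and 0.09 and -0.36 over the settled ones. SV2A, a glycoprotein of synaptic vesicles, had the largest change in OCI-AML2, from 0.153 ± 0.0416 TPM to 8 ± 0.675 and 6.65 ± 0.739 TPM, and it fell in OCI-AML3 from 20.4 ± 2.42 TPM to 7.78 ± 0.548 and 8.53 ± 0.585 TPM. ATP10A, a phospholipid flippase, rose in OCI-AML2 from 0.557 ± 0.0651 TPM to 5.01 ± 0.447 and 5.72 ± 0.49 TPM. MPC1, a subunit of the mitochondrial pyruvate carrier, rose there from 23.8 ± 1.49 TPM to 63.4 ± 6.72 and 103 ± 12.4 TPM and in OCI-AML3 from 32.2 ± 2.51 TPM to 75 ± 0.414 and 63.6 ± 3.66 TPM. MFSD6, a carrier of unknown substrate, fell in both lines (log2 change -1.53 in OCI-AML2 and -1.74 in OCI-AML3). In OCI-AML3 ABCA3, a lipid pump of lamellar bodies, fell from 8.65 ± 1.02 TPM to 1.05 ± 0.193 and 1.09 ± 0.0896 TPM. UCP2, an uncoupling protein of mitochondria, fell there from 64.8 ± 1.17 TPM to 20.5 ± 1.41 and 19.9 ± 2.48 TPM, and SPNS3, a relative of sphingolipid exporters, rose from 13.3 ± 0.893 TPM to 43.2 ± 1.47 and 51.3 ± 7.21 TPM.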

How the data were processed

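RNA from untreated cells was isolated on columns and made into libraries by a commercial facility, per the labels' protocols. The deposited values are TPM, per the file headers. Neither aligner, counting method nor reference annotation is stated (not given in the sources used here), and TPM keeps no depth, so counting error cannot be given. Each of the 18 columns of values matched 1 sample title, with 0 left over.

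The table holds 6999 lines with 4816 symbols and 5069 distinct sets of values. Symbols were settled for 1651 sets, 575 by repetition and 1076 by the replicate order of OCI-AML3 clone 1. Both rules applied to 158 sets and chose the same symbol in 158.

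The 4413 sets that reached 1 TPM in 3 or more libraries were fitted on the log2(TPM + 1) scale by limma (version 3.58.1, R version 4.3.3), with a mean for each group and an intensity trend. Two-sided p-values were adjusted over all tested sets of a comparison (Benjamini-Hochberg, threshold 0.05). The fit was tested on simulated data. A log2(TPM + 1) change understates the change of low genes, so ratios of mean TPM are given beside it. With a pseudocount of 0.1 TPM the change was over 1.5 times as large for 15 of the 31 genes called in OCI-AML3.

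Named were, per line, the 8 largest called rises and the 8 largest called falls, genes with opposite calls, the most abundant gene of each substrate class, and the 5 largest differences between clones of a line and between the parental lines, which gave 30 of the 32 genes. Of the other transporters the 4 with the largest mean change per line were named. The genes and lists were chosen with earlier results of these data known. Alternatives were another pseudocount, other minimums, rescaling, no trend, each line alone, a replicate block and the omission of each library.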

Additional observations from a re-analysis of the deposited data

Results flagged for a closer look

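For 29 of the 32 solute carrier genes the change in the knockout clones differed between the lines by the test of the difference itself, where the 4 pairwise differences between a clone of OCI-AML3 and a clone of OCI-AML2 each passed in the same direction. The values are the mean log2(TPM + 1) change in OCI-AML3 minus that in OCI-AML2, on a background in which 61.3% of all sets tested and 81.3% of the settled sets were called. The most negative differences were those of SLC29A2 (-3.54), SLC26A9 (-3.49), SLC22A31 (-2.89), SLC25A4 (-2.42), SLC44A2 (-2.38), SLC16A9 (-2.38), SLC12A3 (-2.34) and SLC16A10 (-1.96). Next came SLC2A6 (-1.90), SLC37A1 (-1.89), SLC30A3 (-1.87), SLC2A4 (-1.43), SLC4A11 (-1.40), SLC16A13 (-1.38), SLC40A1 (-1.33) and SLC46A3 (-1.28). Smaller negative differences were those of SLC6A8 (-1.23), SLC44A1 (-1.09), SLC39A14 (-1.04), SLC27A2 (-0.93), SLC35G2 (-0.82), SLC35F1 (-0.81) and SLC22A5 (-0.64). The change was higher in OCI-AML3 for SLC25A40 (2.04), SLC37A2 (1.40), SLC22A16 (0.96), SLC6A6 (0.72), SLC6A12 (0.61) and SLC12A5 (0.58). In 5 of these genes (SLC16A13, SLC16A9, SLC22A31, SLC37A1 and SLC44A2) the clones moved in opposite directions in the lines. The OCI-AML2 call was lost in 8 alternative settings for SLC44A2 and in 1 for SLC37A1. The OCI-AML3 call of SLC16A13 was lost in 4. Others of the 29 genes were near 0 TPM in 1 line, so that their difference is in effect the change in the other line. In OCI-AML2 SLC25A4 was listed at 0, and SLC16A10, SLC30A3, SLC35F1 and SLC35G2 were at most 0.09 TPM. In OCI-AML3 SLC26A9 was at most 0.05 TPM. The signs of the differences of SLC12A3, SLC16A10, SLC25A4, SLC30A3, SLC35F1 and SLC12A5 were tied to the minimum of 1 TPM. In groups of 3 libraries no single library was tested as standing apart.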

How the results depend on the processing

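Over 25 alternative settings (24 for the parental lines and for the difference between the lines, which a fit of each line alone does not give), the call was kept in all of them where the gene was tested for 12 of 15 genes in OCI-AML2, 29 of 31 in OCI-AML3, 30 of 31 between the parental lines, 26 of 29 between the changes of the lines, 12 of 18 between the OCI-AML2 clones and 0 of 1 between the OCI-AML3 clones. No named gene changed sign where it was called. The number of genes changed in OCI-AML2 was 5 where a mean log2 change of at least 1 was asked, a limit chosen after seeing the data, and 21 in OCI-AML3. For the OCI-AML3 clones the count was 2 after rescaling by medians of ratios, 0 with a pseudocount of 0.1 and 0 with the replicate block. With the block on the replicate number the other counts were 14 (OCI-AML2), 31 (OCI-AML3), 30 (parental lines), 29 (difference between the lines) and 18 (OCI-AML2 clones), and 8 and 14 for the other transporters. The replicate numbers gave no sign of pairing: deviations of same-numbered libraries correlated at -0.343 to 0.177, over 0.1 in 2 of 18 pairs. Libraries with different numbers correlated over 0.1 in 9 of 36 pairs. Whether libraries were prepared in matched batches cannot be told from these values. Leaving out each library in turn gave 13 to 16 genes in OCI-AML2, 25 to 31 in OCI-AML3, 26 to 31 between the parental lines, 24 to 29 between the changes, 14 to 19 between the OCI-AML2 clones, 0 to 2 between the OCI-AML3 clones, and 7 to 8 and 13 to 14 other transporters. The lows of 25, 26 and 24 came without a parental OCI-AML3 library, when only 27 of the 32 genes reached the minimum. Between the OCI-AML3 clones the count was 0 without OCI-AML2 parental replicate 3, any OCI-AML3 clone 1 library or OCI-AML3 clone 2 replicate 1, and 2 without OCI-AML2 clone 1 replicate 3 or clone 2 replicate 2.

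Between the OCI-AML2 clones, SLC29A2 was not called without clone 1 replicate 3 (adjusted p = 0.138) or clone 2 replicate 1 (0.0579) or 3 (0.0749), SLC22A5 without clone 1 replicate 1 (0.0529), SLC22A31 without clone 1 replicate 1 (0.0927) or 2 (0.0529) or clone 2 replicate 2 (0.0714), and SLC46A3 in 16 settings (0.0524 to 0.281). The parental difference of SLC44A2 was lost with the block (0.0789). The cause was not tested. The minimum of 1 TPM and the unknown depth limit what can be said of the lowest genes.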
